A study of Mus musculus with 26 samples.

Results

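The response of brown adipose tissue (BAT) to 6 h of cold was followed in the mice labelled as Afadin knockouts, which are 14 of the 26 mice sequenced. Of these, 7 were kept at thermoneutrality (29 °C in the study's methods, 30 °C in the sample labels) and 7 were moved from there to 5 °C for 6 h. All were male C57BL/6J mice, 12 to 16 weeks old, carrying floxed alleles of Afdn (Mllt4 in the study, the gene of the scaffold protein Afadin) and Cre under the adiponectin promoter, which is active in white as well as brown adipocytes and leaves the gene intact in the other cells of the tissue. They had been housed at thermoneutrality for 2 weeks. The 7 littermates labelled WT at 29 °C and the 5 labelled WT at 5 °C enter only where the cold responses of the 2 labels are compared. Every value is the amount of RNA of a gene relative to the library it came from, given as CPM, its counts scaled to a common library total, after TMM scaling.

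BAT burns lipid and glucose to make heat. Cold raises sympathetic input to brown adipocytes, noradrenaline acts on β-adrenergic receptors, and the resulting cyclic AMP (cAMP) activates protein kinase A. The kinase drives lipolysis and the transcription of thermogenic genes, among them Ucp1, whose protein lets protons leak across the inner mitochondrial membrane. The same hours bring new fatty acids and glucose into the cell, a load of newly made protein, and hormonal signals from the adrenal gland and pancreas.

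Afdn was not lower with the knockout label at 29 °C, so the animals are called KO-labelled mice throughout. At 29 °C it lay between 154 and 231 CPM in the KO-labelled mice and between 151 and 214 CPM in the WT-labelled ones. After cold it fell to between 53.3 and 65.3 CPM in the KO-labelled mice, below every mouse at 29 °C, with a change on the log2 scale of -1.74 (SE 0.08, adjusted p = 7.67e-16) by the quasi-likelihood test of edgeR (Benjamini-Hochberg adjusted). In the WT-labelled mice it lay between 67.9 and 79.2 CPM at 5 °C, above every KO-labelled mouse there, and the difference between the 2 cold responses was -0.32 (adjusted p = 0.179 by edgeR, not past the threshold). The counts cover the whole gene and the floxed stretch is not given in the sources used here, so a transcript that lacks it would still be counted and Afdn does not check the deletion. Kng1, whose gene lies close to Adipoq on chromosome 16, did follow the label. It ran 7.64 to 11.8 CPM (median 9.14) at 29 °C and 7.35 to 21.9 CPM (median 14.3) at 5 °C in the KO-labelled mice and did not exceed 0.0773 CPM in any of the 12 WT-labelled ones. Total counts per library ran from 15794079 to 17631956 (median 16750654) at 29 °C and from 14639937 to 22123040 (median 17390807) at 5 °C. The tissue was BAT by its markers in both groups, with Ucp1, Cidea, Pparg, Adipoq and Plin1 present in all 14 mice. Skeletal muscle RNA varied widely between mice at both temperatures. The summed level of 12 muscle markers ran from 17.5 to 3803 CPM (median 1998) at 29 °C. At 5 °C it ran from 11.2 to 17720 CPM (median 2006). None of the 12 passed the test described below, but their median log2 fold change was 1.38. With so wide a spread, missing the threshold does not show equal muscle RNA at the 2 temperatures. The sum exceeded 1000 CPM in 5 mice at 29 °C and in 4 at 5 °C. Without those 9 mice, 2 mice remained at 29 °C and 3 at 5 °C. In the first 2 principal components of log2 CPM, the first held 59.8% of the variance and separated the temperatures, and the second held 15.8%.

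**Figure D1:**
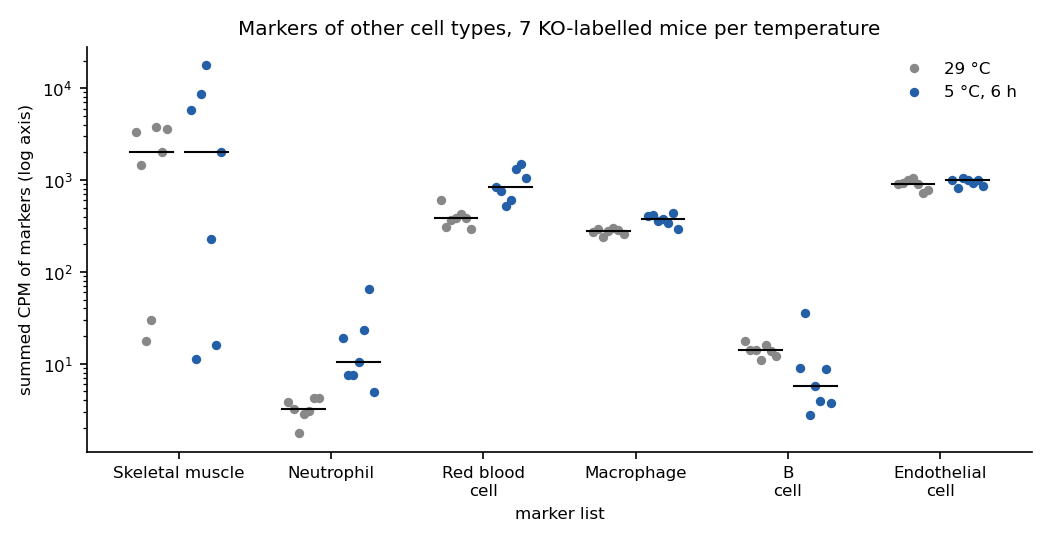
Summed CPM of marker genes of 6 other cell types in each of the 14 KO-labelled mice (log axis, 1 point a mouse, bars at the median of 7). Muscle markers range from 17.5 to 3803 CPM at 29 °C and from 11.2 to 17720 CPM at 5 °C, while neutrophil markers (1.75 to 4.19 CPM at 29 °C, 4.90 to 64.4 CPM at 5 °C) do not overlap.

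The cold response reached most of the expressed genome. Of 17286 genes tested, 5825 (33.7%) were higher and 6035 (34.9%) lower at 5 °C with an adjusted p (false discovery rate, FDR) under 0.05 in the quasi-likelihood test of edgeR (Benjamini-Hochberg adjusted), the rule that "rose" and "fell" stand for below. Together they made 68.6% of the genes tested, so a call alone sets few genes apart. A stricter test against a 1.5-fold change left 5432 genes (31.4%), of which 2492 were higher (14.4% of those tested) and 2940 lower (17.0%). Changes past the first threshold reached at least 2-fold in 1818 higher and 2500 lower genes, at least 4-fold in 490 and 562, at least 8-fold in 208 and 131, and at least 16-fold in 90 and 36. At the far end of the scale, higher genes outnumbered lower ones. For 3639 genes (21.1%) all 7 cold mice were above all 7 at 29 °C, and for 3343 (19.3%) all were below. The median log2 fold change over all genes tested was -0.03. It was -0.34 when libraries were scaled by their size alone, which gave 3223 higher and 8384 lower genes, and -0.18 with upper-quartile factors, which gave 4694 and 7369. Beyond 1.5-fold the same scalings gave 1372 higher and 4556 lower, and 1901 higher and 3708 lower. Small positive changes are therefore relative to the scaling, and groups of genes whose median changes sign with it are named with both values. Without the 9 mice high in muscle markers, 4407 genes were higher and 4168 lower.

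**Figure D2:**
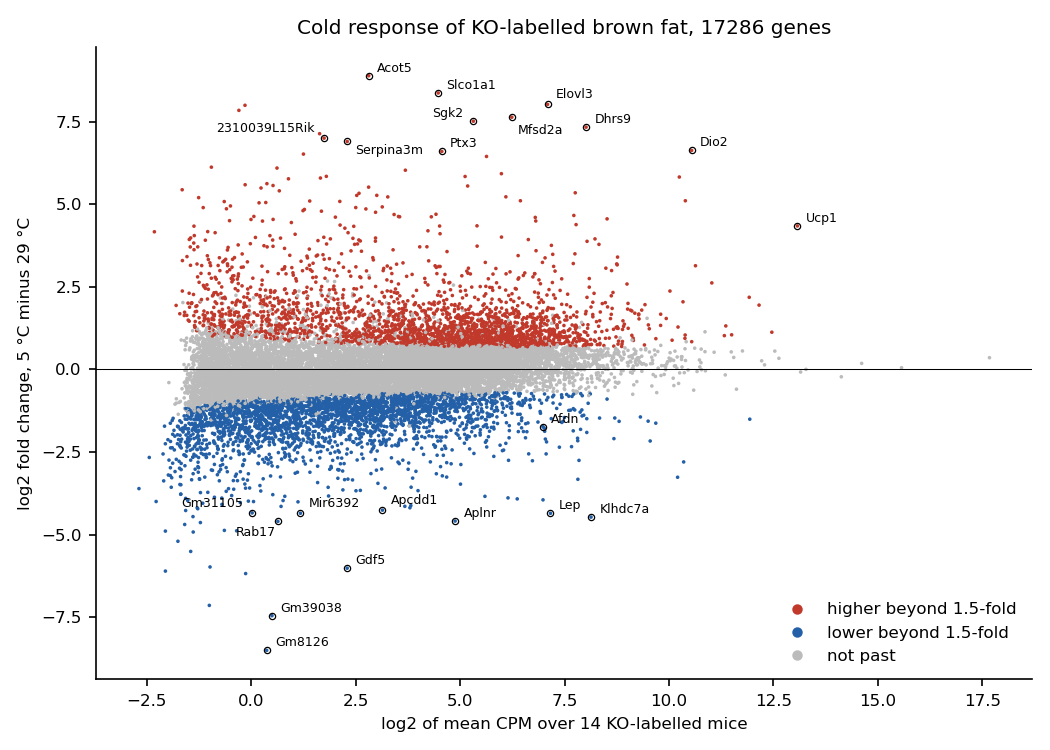
Log2 fold change (5 °C minus 29 °C, 7 mice each) against mean abundance (log2 of mean CPM over 14 mice) for the 17286 genes tested. Genes past the 1.5-fold test are coloured (2492 higher, 2940 lower), and named are the 10 largest changes in each direction by the naming rule, Ucp1 and Afdn.

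The 10 largest increases included enzymes and carriers of lipid metabolism. Acot5, a peroxisomal acyl-CoA thioesterase, had 3 counts in all over the 7 mice at 29 °C and 1573 over those at 5 °C, a ratio of 624 (95% exact interval 213 to 3031, counting error only). Its family members are similar in sequence, which makes the assignment of its reads uncertain. Slco1a1, an organic anion transporter, ran from 0 to 0.5682 CPM (median 0.0533) at 29 °C and from 24.5 to 71.4 CPM (median 43.6) at 5 °C. Elovl3, which elongates very long-chain fatty acids and is a classic cold-induced gene of BAT, ran from 0 to 4.804 CPM (median 0.524) at 29 °C and from 161 to 375 CPM (median 294) at 5 °C. Mfsd2a, which carries lysophospholipids across membranes, ran from 0 to 3.51 CPM (median 0.236) at 29 °C and from 60.1 to 258 CPM (median 139.7) at 5 °C. The 10 were taken only from genes whose groups did not overlap, so the lack of overlap was set by the choice. The log2 fold changes of Slco1a1, Elovl3 and Mfsd2a were 8.37 (SE 0.44), 8.02 (SE 0.52) and 7.63 (SE 0.50). Dhrs9, a short-chain dehydrogenase that can act on retinoids, ran from 1.46 to 10.3 CPM (median 2.06) at 29 °C and from 383 to 723 CPM (median 486) at 5 °C, a log2 fold change of 7.33 (SE 0.39). The kinase Sgk2 rose by 7.51 and the noncoding RNA 2310039L15Rik by 7.00 on the log2 scale. Ptx3, an acute-phase pattern recognition protein, ran from 0.175 to 0.964 CPM (median 0.427) at 29 °C and from 5.62 to 187 CPM (median 26.7) at 5 °C. Serpina3m, a serine protease inhibitor from a cluster of near copies, ran from 0 to 0.465 CPM (median 0) at 29 °C and from 0.846 to 22.6 CPM (median 5.67) at 5 °C.

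The largest decreases held secreted factors, receptors and noncoding RNAs. Gm8126 had 28 to 103 counts in each mouse at 29 °C and 0 in all 7 at 5 °C, so that it was at least 96.5-fold lower against a limit of 3 counts over the group. Gm39038 had 374 counts at 29 °C and 1 at 5 °C over 7 mice each, a ratio of 314 (95% exact interval 56.0 to 12437, counting error only). Gdf5, a bone morphogenetic protein family ligand, ran from 7.33 to 13.1 CPM (median 8.85) at 29 °C and from 0 to 0.357 CPM (median 0.120) at 5 °C, a log2 fold change of -6.02 (SE 0.32). Lep (ENSMUSG00000059201.12, chr6:29060220-29073877), which encodes the satiety hormone leptin, ran from 203 to 359 CPM (median 265) at 29 °C and from 5.38 to 40.4 CPM (median 6.87) at 5 °C (log2 fold change -4.36 (SE 0.39)). Aplnr, the receptor of the peptide apelin, ran from 34.8 to 75.4 CPM (median 58.4) at 29 °C and from 0.749 to 4.17 CPM (median 2.09) at 5 °C (-4.59, SE 0.28). Klhdc7a was the most narrowly spread of these, at 493 to 603 CPM (median 528) at 29 °C and 21.5 to 29.8 CPM (median 22.8) at 5 °C (-4.47, SE 0.11). The small GTPase Rab17 fell by 4.60 on the log2 scale, Apcdd1, an inhibitor of Wnt signalling, by 4.26, and the annotated microRNA gene Mir6392 by 4.36. Gm31105 (log2 fold change -4.35) is an antisense gene, and the strand setting of the counting is not given in the sources used here, so its reads cannot be told apart from those of the gene it faces.

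**Figure D3:**
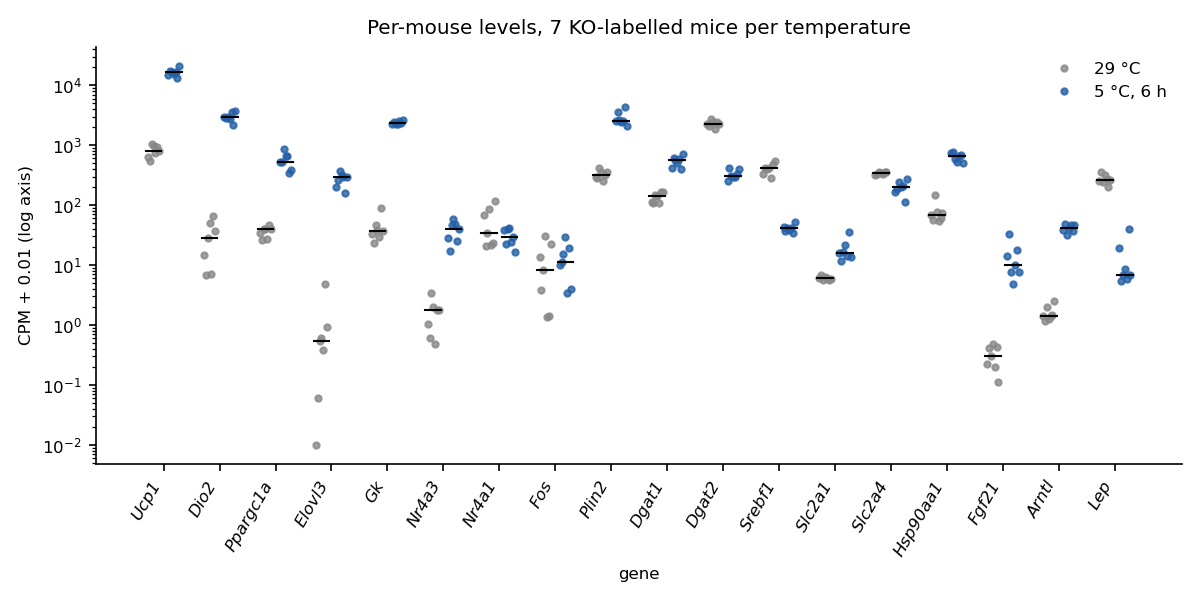
CPM of 18 genes in each of the 14 KO-labelled mice (log axis, CPM plus 0.01, 1 point a mouse, bars at the median of 7). For all genes but Nr4a1 and Fos, the 7 mice at 5 °C lie apart from the 7 at 29 °C.

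Sequences around the start sites of 5 genes are shown because they hold a known binding motif of a pathway described below, next to the change measured. Of the genes tested, 11463 matched a RefSeq promoter of 300 bases (250 before and 50 after the start, GRCm38.p6, the patched build of mm10). The cAMP response element TGACGTCA, which reads the same on both strands, was found in 3.36% of these genes and in 1.79% of all 32851 windows. The first share counts genes with the motif in any of their windows, and the second counts single windows, so they are not alike. Among genes higher beyond 1.5-fold it was in 74 of 1807 (4.1%), among lower ones in 38 of 1922 (1.98%), and among the others in 273 of 7734 (3.53%). It was rare in the lists described below. It was in 1 of 33 genes of cAMP and protein kinase A signalling (Prkar1a) and 1 of 24 thermogenic genes (Dio2). It was also in 1 of 15 transcription factors responsive to cAMP and 3 of 21 immediate early genes, Dusp1 among them. The heat shock element GAANNTTCNNGAA, searched on both strands, was in 0.628% of matched genes and in 4 of 14 heat shock genes (Hspd1, Hspe1, Hsph1 and Chordc1), the first 2 of which share a promoter region. Dio2 makes active thyroid hormone, Prkar1a is a regulatory subunit of protein kinase A, Dusp1 is a MAP kinase phosphatase, and Hspd1 and Hsph1 are chaperones. The capitals mark the motif (in Hspd1, 2 overlapping matches), and a match is a description of letters, not evidence of binding.
Dio2, chr12:90738989-90739288, minus strand: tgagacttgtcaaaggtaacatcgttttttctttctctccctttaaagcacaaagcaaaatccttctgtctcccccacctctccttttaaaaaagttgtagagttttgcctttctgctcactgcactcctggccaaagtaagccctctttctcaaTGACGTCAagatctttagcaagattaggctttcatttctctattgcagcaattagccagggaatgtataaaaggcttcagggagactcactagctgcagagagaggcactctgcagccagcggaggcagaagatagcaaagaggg
Prkar1a, chr11:109650612-109650911, plus strand: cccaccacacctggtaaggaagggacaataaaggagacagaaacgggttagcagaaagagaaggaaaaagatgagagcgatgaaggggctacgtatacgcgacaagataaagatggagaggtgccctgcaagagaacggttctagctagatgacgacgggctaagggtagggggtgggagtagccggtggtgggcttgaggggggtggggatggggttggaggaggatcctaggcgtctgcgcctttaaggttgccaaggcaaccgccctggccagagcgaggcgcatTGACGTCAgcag
Dusp1, chr17:26508423-26508722, minus strand: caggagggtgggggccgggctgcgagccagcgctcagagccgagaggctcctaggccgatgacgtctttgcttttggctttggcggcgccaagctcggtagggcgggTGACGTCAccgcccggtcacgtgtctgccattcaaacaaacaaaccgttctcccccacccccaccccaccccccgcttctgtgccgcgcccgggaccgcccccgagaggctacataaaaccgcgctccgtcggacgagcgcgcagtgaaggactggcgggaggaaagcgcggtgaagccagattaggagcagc
Hspd1, chr1:55087883-55088182, minus strand: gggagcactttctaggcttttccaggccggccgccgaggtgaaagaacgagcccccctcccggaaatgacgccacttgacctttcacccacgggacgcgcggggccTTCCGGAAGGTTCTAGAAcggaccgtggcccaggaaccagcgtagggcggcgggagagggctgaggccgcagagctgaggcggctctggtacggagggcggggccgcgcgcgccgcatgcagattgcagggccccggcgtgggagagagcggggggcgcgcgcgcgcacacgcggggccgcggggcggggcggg
Hsph1, chr5:149636266-149636565, minus strand: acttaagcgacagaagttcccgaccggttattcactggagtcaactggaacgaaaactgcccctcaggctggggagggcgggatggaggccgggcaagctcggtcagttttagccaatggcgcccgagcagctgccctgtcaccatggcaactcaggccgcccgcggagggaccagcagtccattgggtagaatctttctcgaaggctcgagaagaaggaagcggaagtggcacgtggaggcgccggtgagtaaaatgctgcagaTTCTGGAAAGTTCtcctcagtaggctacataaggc
The motif began 95 bases before the start site in Dio2, 143 before in Dusp1, 144 before in Hspd1, and after it in Prkar1a and Hsph1.

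On the input side of the pathway, transcripts of β-adrenergic receptors were lower after cold and an α1 receptor was higher. Adrb3, the main β receptor of adipocytes, ran from 34.9 to 90.5 CPM (median 55.9) at 29 °C and from 13.6 to 44.6 CPM (median 34.9) at 5 °C (log2 fold change -0.94 (SE 0.22)), and the groups overlapped. Adrb1 fell by 1.40 and Adra1d by 2.04 on the log2 scale, whereas Adra1a rose by 1.43. In all, 1 of the 6 receptors tested rose, 4 fell and 1 did not pass.
Of 39 genes of cAMP and protein kinase A signalling, 20 rose, 9 fell and 10 did not pass. The adenylyl cyclase Adcy3, which makes cAMP, ran from 72.0 to 99.1 CPM (median 84.9) at 29 °C and from 558 to 941 CPM (median 794) at 5 °C, a log2 fold change of 3.19 (SE 0.09). The phosphodiesterases that degrade cAMP moved the same way, with Pde1c at 3.80, Pde7b at 2.88, Pde4d at 1.96 and Pde3a at 1.75. Akap12, an anchor for the kinase, rose by 3.20, and Prkar1a ran from 99.3 to 131 CPM (median 109.6) at 29 °C and from 211 to 295 CPM (median 240.2) at 5 °C, a log2 fold change of 1.12 (SE 0.09). Adcy9 fell by 1.76 and Rgs2, a brake on G protein signalling, by 1.89. The median of the list was 0.36, and -0.01 with library size alone.
Of 20 transcription factors and cofactors responsive to cAMP, 14 rose and 1 fell, with a median of 0.77. Nr4a3, an orphan nuclear receptor, ran from 0.470 to 3.38 CPM (median 1.76) at 29 °C and from 17.4 to 59.8 CPM (median 40.3) at 5 °C (4.62, SE 0.44), while its relative Nr4a1 overlapped between temperatures at 20.7 to 118 CPM (median 34.9) at 29 °C and 16.4 to 42.1 CPM (median 29.6) at 5 °C (-0.82, SE 0.44, not past the threshold). Sik1, a kinase induced by cAMP that restrains the same pathway, rose by 1.82 and Crem, a CREB relative, by 1.30. The immediate early genes were divided. Of 28, 16 rose, 2 fell and 10 did not pass, and those that rose included the phosphatases Dusp6 (2.34), Dusp8 (2.13), Dusp5 (2.11) and Dusp1 (1.10) and the factors Atf3 (2.90) and Fosb (2.82). Fos, at 1.36 to 30.1 CPM (median 8.38) at 29 °C and 3.48 to 29.1 CPM (median 11.2) at 5 °C, did not pass (0.20, SE 0.70), nor did Egr1 (-1.04), and Egr3 fell by 2.67.

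Among 30 thermogenic genes, 20 rose, 3 fell and 7 did not pass, with a median of 0.61. With library size alone 13 rose and 6 fell, with a median of 0.29. Ucp1 (ENSMUSG00000031710.4, chr8:83290352-83298452) ran from 551 to 1052 CPM (median 813) at 29 °C and from 13014 to 20990.0 CPM (median 16651) at 5 °C, a change on the log2 scale of 4.34 (SE 0.16, adjusted p = 6.7e-18) in the quasi-likelihood test of edgeR (Benjamini-Hochberg adjusted). Dio2 ran from 6.70 to 66.1 CPM (median 28.1) at 29 °C and from 2141 to 3654 CPM (median 2902) at 5 °C (6.63, SE 0.54, adjusted p = 2.96e-11 by edgeR with Benjamini-Hochberg adjustment). Ppargc1a, the coactivator that drives mitochondrial biogenesis, ran from 26.3 to 47.5 CPM (median 39.7) at 29 °C and from 348 to 856 CPM (median 523) at 5 °C (3.95, SE 0.20). Gk, glycerol kinase, ran from 23.6 to 88.0 CPM (median 36.9) at 29 °C and from 2214 to 2669 CPM (median 2302) at 5 °C (5.82, SE 0.27). None of the 4 overlapped between the temperatures. The thyroid hormone receptor gene Thra fell by 1.40, while Irf4, a partner of Ppargc1a, rose by 1.68 and Kcnk3, a potassium channel of brown adipocytes, by 1.34.
Of 14 genes used as markers of brown adipocytes, Ucp1 included, 4 rose and 6 fell. The list also holds genes of adipocytes in general, such as Adipoq and Pparg, so this count is not one of brown-specific genes. Cidea, a lipid droplet protein, was at 0.04 and did not pass the threshold. Prdm16, which directs brown fat fate, fell by 0.35 (no longer past the threshold without KO30 mouse 10 or 11, or KO5 mouse 23, 26 or 28), its partner Ebf2 by 0.63, and Pparg, the master regulator of adipogenesis, by 0.28 on the log2 scale. Zic1 (-0.11) and Lhx8 (-0.27), markers of the brown lineage, did not pass. Of 23 adipogenic nuclear receptors and factors, 11 rose and 6 fell. Cebpb (1.73) and Cebpd (2.33), which act early in adipogenesis, rose, and Cebpa, which acts late, ran from 294 to 401 CPM (median 314) at 29 °C and from 77.6 to 105 CPM (median 87.1) at 5 °C and fell (-1.86, SE 0.08). Vdr, the vitamin D receptor, rose by 3.43 and Ppara, the fatty acid sensor, fell by 1.03. The median of the adipogenic list changed sign, from 0.31 to -0.03, both without mitochondrial genes in the library size and without the mice high in muscle markers.

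**Figure D4:**
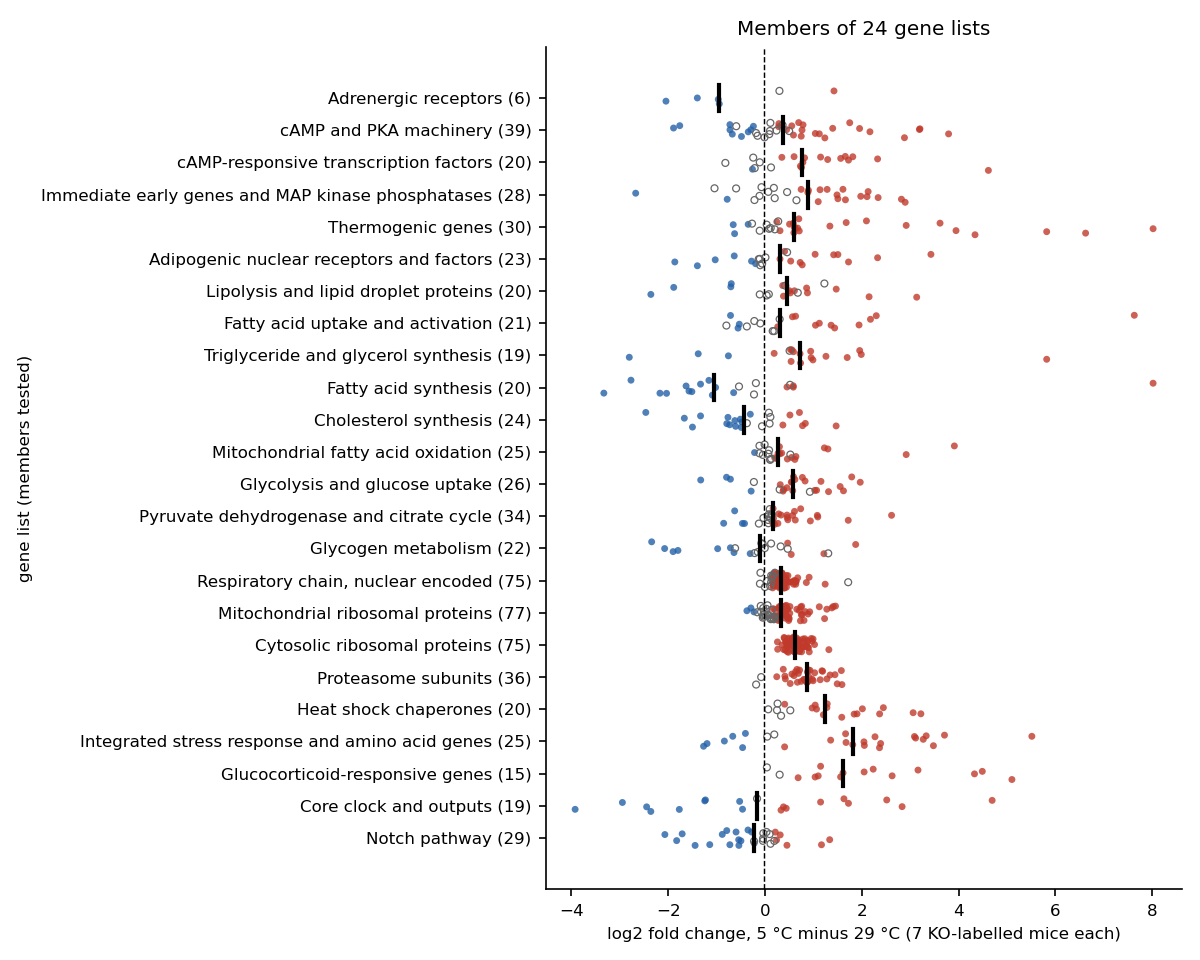
Log2 fold change of every tested member of 24 gene lists (1 point a gene, black bars at list medians, dashed line at the median of all genes tested, -0.03). Filled points passed the FDR threshold and open ones did not.

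Lipid genes moved in opposite directions by pathway. Most genes of triglyceride synthesis rose, and genes of fatty acid uptake rose more often than they fell under TMM scaling. Lpl, which releases fatty acids from lipoproteins at the vessel wall, ran from 1722 to 2212 CPM (median 1829) at 29 °C and from 4688 to 8051 CPM (median 7520.0) at 5 °C (1.94, SE 0.11), and the uptake genes Cd36 (1.05), Fabp4 (1.12), Acsl1 (2.18) and Slc27a2 (2.30) rose as well. Of 21 genes of fatty acid uptake and activation, 11 rose and 3 fell, with a median of 0.30. With library size alone 9 rose and 7 fell, with a median of -0.03. Of 19 genes of triglyceride and glycerol synthesis, 15 rose and 3 fell, with a median of 0.73. The last step was divided. Dgat1, an enzyme that adds the third fatty acid, ran from 109 to 169 CPM (median 143) at 29 °C and from 400.1 to 712 CPM (median 573) at 5 °C (1.99, SE 0.14), and Dgat2, which does the same step, ran from 1871 to 2743 CPM (median 2233) at 29 °C and from 251 to 423 CPM (median 310.2) at 5 °C (-2.80, SE 0.14). Neither overlapped between the temperatures. Gpam, which starts the pathway, rose by 1.96.
Lipid droplets showed the same division, with 10 of 20 genes of lipolysis and droplets higher and 4 lower (6 and 6 with library size alone). Plin2, a droplet coat protein, ran from 252 to 410.3 CPM (median 315) at 29 °C and from 2076 to 4327 CPM (median 2510.0) at 5 °C (3.14, SE 0.15), and Abhd5, the coactivator of the triglyceride lipase, rose by 2.15. The lipase gene Pnpla2 itself did not pass (-0.11), Lipe, hormone-sensitive lipase, fell by 0.70, G0s2, an inhibitor of Pnpla2, by 0.70, and Plin3 by 1.88.
Most genes of de novo fatty acid synthesis fell. Srebf1 (ENSMUSG00000020538.15, chr11:60199089-60222581), the transcription factor that drives it, ran from 288 to 541 CPM (median 416) at 29 °C and from 33.6 to 52.2 CPM (median 41.2) at 5 °C (-3.33, SE 0.23, adjusted p = 7.26e-13 in the quasi-likelihood test of edgeR, Benjamini-Hochberg adjusted). Fasn, fatty acid synthase, ran from 3727 to 7693 CPM (median 5901) at 29 °C and from 745 to 2664 CPM (median 2116) at 5 °C (-1.51, SE 0.30). Acly (-1.63), Acaca (-1.57), Thrsp (-2.17) and Scd2 (-2.77) fell too, and Scd1, the most abundant desaturase, did not pass (-0.23). Of 20 genes listed, 12 fell and 4 rose, and 3 of those that rose, Elovl3, Elovl5 (0.59) and Elovl6 (0.59), elongate existing chains. The median was -1.05. Cholesterol synthesis was split, with 6 of 24 higher and 13 lower. Its enzymes Hmgcs1 (0.84) and Sqle (0.71) rose while Fdft1, which makes squalene, fell by 2.46 and Dhcr7, a late enzyme, by 1.67.
Fatty acid oxidation changed less. Of 25 genes, 14 rose and 1 fell, with a median of 0.27 (-0.05 with library size alone). Bdh1, a ketone body dehydrogenase, stood apart at 0 to 0.329 CPM (median 0.155) at 29 °C and 0.619 to 5.66 CPM (median 2.33) at 5 °C (3.91, SE 0.51). Slc25a20, the acylcarnitine carrier, rose by 1.30 and the outer membrane gate Cpt1b by 0.62.

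Under TMM scaling most genes of glucose uptake and glycolysis rose, while the basal and the insulin-dependent glucose transporters went opposite ways. Slc2a1, the basal glucose transporter, ran from 5.63 to 6.70 CPM (median 6.06) at 29 °C and from 11.6 to 36.1 CPM (median 16.1) at 5 °C (1.62, SE 0.18), whereas Slc2a4, moved to the surface by insulin, ran from 315 to 361 CPM (median 348) at 29 °C and from 114 to 271 CPM (median 197) at 5 °C (-0.79, SE 0.13). Of 26 genes of glucose uptake and glycolysis, 19 rose and 4 fell, with a median of 0.58. They included Pfkp (1.97), Hk1 (1.07), Hk2 (1.03) and Pgk1 (1.16), and the lactate carriers Slc16a1 (1.79) and Slc16a3 (1.55). Aldoa (1.31) is also a gene of skeletal muscle. Without the 9 mice high in muscle markers, 17 rose and 3 fell. With library size alone, 13 of the 26 rose and 4 fell, with a median of 0.25.
At the entry to the citrate cycle, Pdk4, a kinase that shuts pyruvate dehydrogenase, ran from 396 to 850.5 CPM (median 641) at 29 °C and from 2238 to 5120.2 CPM (median 3423) at 5 °C (2.62, SE 0.30), and Pdp2, a phosphatase that reopens it, rose by 1.72. Pdk2 and Pdk1 fell by 0.46 and 0.62. Of 34 genes of pyruvate oxidation and the cycle, 20 rose and 4 fell, with a median of 0.17 that was -0.15 with library size alone. Of 22 glycogen genes, 4 rose, 8 fell and 10 did not pass, with a median of -0.11. The share that fell was near the 34.9% of all genes tested, and the share that rose was below their 33.7%. The brain and liver forms of glycogen phosphorylase fell, Pygb by 2.07 and Pygl by 0.64. Gys2, liver glycogen synthase, rose by 1.88, and the phosphatase subunits Ppp1r3b and Ppp1r3d fell by 2.34 and 1.90.

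Genes of respiration changed little, and those of protein synthesis and breakdown changed more. Of 75 nuclear-encoded subunits of the respiratory chain, 64 rose and 0 fell (all 11 others missed the threshold), with a median of 0.34. With mitochondrial genes left out of the library size the median was -0.01, and 12 rose and 17 fell, so the direction of this group depends on the scaling. Cycs, cytochrome c, was the largest change among those past the threshold, at 147 to 167 CPM (median 156) at 29 °C and 348 to 432 CPM (median 376) at 5 °C (1.24, SE 0.07). Of 77 mitochondrial ribosomal proteins, 54 rose and 3 fell (median 0.33, and -0.02 with that scaling). The share of all counts from mitochondrially encoded proteins was 7.57% ± 0.75 (SD, n = 7) at 29 °C and 6.42% ± 0.47 (SD, n = 7) at 5 °C, a difference of -1.15 percentage points (exact two-sided permutation test, p = 0.00524, against a smallest possible p of 0.000583). This share has no TMM scaling, and mt-Co1 alone held 4.93% of counts over the KO-labelled mice. Of 13 such genes, 5 (mt-Nd4l, mt-Co2, mt-Co3, mt-Atp6 and mt-Atp8) were under the filter. The share therefore holds few reads of those 5 and does not stand for all mitochondrial messenger RNA. Why they had so few counts was not tested. After TMM scaling, 3 of the 8 such genes tested rose and 0 fell. Their summed level overlapped, at 57247 to 73709 CPM at 29 °C and 61837 to 93191 CPM at 5 °C.
All 75 cytosolic ribosomal proteins rose, with a median of 0.63 against -0.03 for all genes. The largest change was 1.32, in Rps15a. With library size alone the median was 0.32, and 55 rose and 0 fell. Without the 9 mice high in muscle markers, 74 rose. Ribosomal protein genes have many processed pseudogenes, which can take or lend reads.
Of 36 proteasome genes, 34 rose and 0 fell (median 0.87, and 33 higher without the mice high in muscle markers). The 2 that did not pass, Psmg1 (-0.08) and Psmg2 (-0.18), encode assembly chaperones rather than subunits. Psmd11, a lid subunit, ran from 32.4 to 39.2 CPM (median 34.8) at 29 °C and from 94.0 to 114 CPM (median 102) at 5 °C (1.58, SE 0.06), without overlap.

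Chaperones of the cytosol and mitochondria were among the groups furthest above the background. Of 20 heat shock genes, 15 rose and 0 fell, with a median of 1.24. Hsp90aa1, the inducible cytosolic HSP90, ran from 54.7 to 145 CPM (median 69.0) at 29 °C and from 509.7 to 778 CPM (median 662) at 5 °C (3.06, SE 0.21, adjusted p = 6.58e-13 in the quasi-likelihood test of edgeR, Benjamini-Hochberg adjusted). Hspa8, the constitutive HSP70, ran from 247 to 482 CPM (median 329) at 29 °C and from 1259 to 2226 CPM (median 1550.0) at 5 °C (2.37, SE 0.17). Hspb7 (3.22), Hspb8 (2.45), Bag3 (1.90), Hsph1 (2.01), Hspe1 (1.84) and Hspd1 (1.21) rose too. The strictly inducible pair Hspa1a (0.26) and Hspa1b (0.52), which are near-identical copies, did not pass. Both rested on 1 mouse, since without KO30 mouse 10 they were at 1.78 and 1.95 and past the threshold.
Of 25 genes of the integrated stress response and amino acid supply, 17 rose and 6 fell, with a median of 1.82. Atf4, its transcription factor, ran from 43.7 to 82.2 CPM (median 69.9) at 29 °C and from 245 to 409 CPM (median 320.1) at 5 °C (2.27, SE 0.15). Amino acid carriers that rose included Slc3a2 (3.48), Slc7a5 (3.33), Slc7a1 (3.11) and Slc7a11 (3.09), as did Mthfd2 (3.71), an enzyme of mitochondrial folate metabolism. Ddit3, which encodes the stress factor CHOP, fell by 0.40 (not past the threshold without KO30 mouse 8 or 11, or KO5 mouse 24, 25 or 26), and the serine synthesis enzymes Phgdh and Psph fell by 0.84 and 0.46. In the endoplasmic reticulum, 17 of 27 chaperone and unfolded protein response genes rose and 7 fell (median 0.47). With library size alone 12 rose and 9 fell (median 0.15). Hspa5, the main chaperone of the endoplasmic reticulum, rose by 1.24 and Dnajb9 by 2.48, while Edem1, of the degradation pathway, fell by 0.79. Hmox1, which breaks down heme, ran from 7.54 to 17.0 CPM (median 9.30) at 29 °C and from 120.4 to 748 CPM (median 457) at 5 °C (5.34, SE 0.28), the largest change of 24 antioxidant genes, of which 14 rose and 3 fell. With library size alone, 9 of the 24 rose and 7 fell (median 0.098).

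Most genes responsive to glucocorticoids rose. Of 15, 13 rose and 0 fell, with a median of 1.61. Mt2 and Mt1, metallothioneins that bind zinc and copper, had log2 fold changes of 5.10 (SE 0.37) and 3.16 (SE 0.25), and Mt2 ran from 2.71 to 7.90 CPM (median 4.32) at 29 °C and from 66.1 to 407 CPM (median 145) at 5 °C. Cdkn1a, an inhibitor of the cell cycle, ran from 4.77 to 16.1 CPM (median 7.25) at 29 °C and from 175 to 270.3 CPM (median 205) at 5 °C (4.49, SE 0.25). Fkbp5 (2.24), Sgk1 (2.63) and Zbtb16 (1.56) rose. Per1 and Dusp1 are on this list and on others above or below.
Clock genes moved in opposite sets. Arntl (ENSMUSG00000055116.8, chr7:113207465-113314126), the core activator, ran from 1.17 to 2.497 CPM (median 1.41) at 29 °C and from 31.7 to 47.5 CPM (median 41.3) at 5 °C (4.70, SE 0.25, adjusted p = 5.56e-15 in the quasi-likelihood test of edgeR, Benjamini-Hochberg adjusted), and its partners Npas2 (2.83) and Clock (1.63) rose, as did Cry1 (1.73) and Nfil3 (2.52). Per3 ran from 118 to 183 CPM (median 152) at 29 °C and from 7.93 to 13.8 CPM (median 10.1) at 5 °C (-3.92, SE 0.14), and Dbp (-2.94), Hlf (-2.36), Tef (-1.23), Nr1d1 (-1.24) and Bhlhe41 (-1.77) fell. Of 19 genes, 9 rose and 9 fell, and 6 rose and 10 fell with library size alone. The hour at which each group was sampled is not given in the sources used here, so cold and time of day cannot be told apart for these genes. The same holds for any other gene of this comparison whose level varies over the day.
Of 30 insulin signalling genes, 13 rose and 12 fell. Irs2, an adaptor of the insulin receptor, ran from 21.4 to 71.8 CPM (median 38.4) at 29 °C and from 134 to 252 CPM (median 189.6) at 5 °C (2.18, SE 0.33), and Insr, the receptor, rose by 0.98. Pik3r1, the main regulatory subunit of the downstream lipid kinase, ran from 273 to 449 CPM (median 375) at 29 °C and from 60.9 to 143 CPM (median 70.8) at 5 °C (-2.08, SE 0.16), and Akt2 fell by 1.23.

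Secreted factors included some of the largest changes. Fgf21, a metabolic hormone, ran from 0.0999 to 0.472 CPM (median 0.291) at 29 °C and from 4.89 to 33.4 CPM (median 10.0) at 5 °C (5.52, SE 0.49). Il6, a cytokine, ran from 0 to 0.175 CPM (median 0) at 29 °C and from 0.179 to 12.2 CPM (median 0.599) at 5 °C (5.49, SE 1.00), and Gdf15, a stress hormone, rose by 3.27. Bmp8b, a ligand made by brown fat, rose by 2.39. Adiponectin, Adipoq, fell by 0.50, Igf1 by 1.82, and Vegfa, the growth factor of vessels, did not pass (-0.14). Of 33 genes tested, 16 rose and 9 fell, with a median of 0.23 that was -0.09 with library size alone.
Vessel genes were split as well, with 7 of 16 angiogenic genes higher and 7 lower. Pgf, placental growth factor, ran from 1.498 to 2.74 CPM (median 1.81) at 29 °C and from 10.9 to 97.7 CPM (median 25.9) at 5 °C (4.19, SE 0.41), and Apold1, an immediate early gene of endothelium, rose by 2.29. Angpt1, the ligand of the Tie2 receptor, ran from 52.8 to 64.1 CPM (median 59.5) at 29 °C and from 2.92 to 10.5 CPM (median 4.35) at 5 °C (-3.47, SE 0.21), its antagonist Angpt2 rose by 1.03, and the receptor genes Tek and Tie1 fell by 0.95 and 0.91. Of 10 endothelial markers, 4 rose and 5 fell, and their summed level overlapped between temperatures (730 to 1059 CPM at 29 °C and 821 to 1058 CPM at 5 °C). In bulk tissue, fewer cells of a type and less RNA per cell cannot be told apart. Of 29 Notch pathway genes, 6 rose and 15 fell (median -0.23). The fringe enzymes that tune the receptors fell, Lfng by 2.07 and Mfng by 1.71, as did the ligand Dll4 by 1.44 and the receptor Notch3 by 1.14. Among matrix genes, 10 of 26 rose and 1 fell, led by Timp1 (2.78), Col4a1 (2.04) and Col4a2 (1.77), with a median of 0.21. Of 21 junction genes, 12 rose and 4 fell, with Afdn (-1.74) and Cdh2 (-1.89), N-cadherin, the lowest, and a median of 0.27. With library size alone both medians were below 0 (-0.11 and -0.04).

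Markers of neutrophils and red cells moved with temperature. The summed level of neutrophil markers was 1.75 to 4.19 CPM at 29 °C and 4.90 to 64.4 CPM at 5 °C without overlap. Of the 6 tested, 5 rose and 1 fell, each beyond 1.5-fold. S100a8 ran from 0.175 to 0.723 CPM (median 0.354) at 29 °C and from 1.14 to 16.5 CPM (median 2.54) at 5 °C and Cxcr2 from 0.0470 to 0.207 CPM (median 0.0999) at 29 °C and from 0.299 to 9.17 CPM (median 0.953) at 5 °C, while Ly6g, Mpo, Camp and Ngp were under the filter. All 7 red cell markers rose, from a summed 290 to 611 CPM to 519 to 1500 CPM, which overlap. With library size alone, 4 of the 7 red cell markers rose and 0 fell. The share of these cells in the changes of Il6, Ptx3, Lcn2 (4.33) and Hmox1 was not tested. Markers of white adipocytes in sum fell from between 331 and 471 CPM to between 132 and 256 CPM, most of which is Lep and Agt (2.83) moving in opposite directions. Of 6 such markers tested, 3 rose and 2 fell, with a median of 0.29 that was -0.07 with library size alone. Of 26 mitotic genes, 1 rose and 10 fell, with the replication genes Mcm5 (-1.41) and Mcm2 (-0.86) among the lowest.

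Classes of genes differed in their lean. Among protein-coding genes 15.9% were higher and 16.3% lower beyond 1.5-fold. Among lincRNAs these shares were 10.7% and 27.3%, among antisense genes 8.13% and 25.6%, and among bidirectional promoter lncRNAs 4.62% and 40.0% (26 of 65). For small nuclear RNAs the shares were 31.1% and 0% (14 and 0 of 45), although libraries made this way capture such short RNAs poorly. Protein-coding genes in the lowest 25% by abundance were lower in 23.9% and higher in 10.3%, and those in the top 25% were lower in 6.82% and higher in 26.3%. A gene's abundance is taken over the same 14 mice and is not independent of its change.

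The cold response of KO-labelled mice was last set against that of WT-labelled mice, which share no sample with it. The difference between the responses passed the threshold for 200 of 17286 genes (1.16%), of which 50 were positive (the response of KO-labelled mice lay above) and 150 negative, in the quasi-likelihood test of edgeR (Benjamini-Hochberg adjusted). At an unadjusted p below 0.05 there were 2804. DESeq2 gave 242 positive and 246 negative differences, library size alone 0 and 278, and upper-quartile factors 27 and 246. The count rested on single mice, with 49 to 371 genes when each of the 26 was left out in turn. It moved by more than 1.5 times without KO30 mouse 8 (49), KO30 mouse 10 (69), KO30 mouse 11 (86), KO5 mouse 22 (302), KO5 mouse 24 (110), WT30 mouse 2 (101), WT30 mouse 4 (111), WT30 mouse 6 (84), WT30 mouse 7 (371), WT5 mouse 16 (121), WT5 mouse 17 (52), WT5 mouse 18 (94), WT5 mouse 19 (78) or WT5 mouse 21 (69).
Positive differences were nearly all in protein-coding genes (47 of 50). Pygl (ENSMUSG00000021069.16, chr12:70190811-70231488) fell by 0.64 on the log2 scale in KO-labelled mice and by 2.00 in WT-labelled ones, a difference of 1.36 (adjusted p = 0.0408 by edgeR with Benjamini-Hochberg adjustment). Its CPM ran from 354 to 624 CPM (median 443) at 29 °C and from 132 to 528 CPM (median 322) at 5 °C in KO-labelled mice and from 455 to 976 CPM (median 546) at 29 °C and from 117 to 198 CPM (median 143) at 5 °C in WT-labelled ones. The labels overlapped at both temperatures. Pdk1 fell by 0.62 in KO-labelled and by 1.52 in WT-labelled mice, a difference of 0.90, and Ugp2, which makes UDP-glucose for glycogen, had responses of 0.47 and -0.23, a difference of 0.70. The remaining largest were Ufsp1 (1.02), a protease of the ubiquitin-like modifier UFM1 that overlaps Srrt on the other strand, the histone gene Hist1h3f (0.91) and Thnsl2 (0.89). Cebpa fell in both, by 1.86 and 2.33. Of the 75 cytosolic ribosomal proteins, 9 passed, all positive, with Rps15a at 0.60, with medians of 0.63 in KO-labelled and 0.41 in WT-labelled mice. A positive difference was found in 74 of the 75, in all 75 respiratory chain genes and in 56.7% of all genes tested, so the lean is not particular to ribosomal proteins. With library size alone no gene passed with a positive difference.
Negative differences were of another kind. Of 150, 72 (48.0%) were protein-coding against 79.0% of all genes tested, and 47 (31.3%) were in the class TEC, transcribed loci with no settled annotation, against 5.56%. Lying wholly inside a protein-coding gene on the same strand were 57 (38.0%) of them and 7.34% of all genes tested. Those 57 sat in 46 host genes, of which 3 passed the test of the difference themselves. The 5 largest with a mean of at least 1 CPM were all of this kind. Gm37390, Gm36933 and Gm37033 lie in Itpkb on chromosome 1, Gm20682 in Foxn3 and Gm43984 in Etv6. Gm37033 (ENSMUSG00000104388.1, chr1:180357649-180364998) ran from 9.04 to 25.8 CPM (median 19.9) at 29 °C and from 4.19 to 13.0 CPM (median 9.55) at 5 °C in KO-labelled mice and from 5.56 to 17.2 CPM (median 10.2) at 29 °C and from 15.4 to 18.7 CPM (median 17.6) at 5 °C in WT-labelled mice, with log2 responses of -0.97 and 0.67. Itpkb itself had responses of -0.23 and 0.25 (difference -0.49, adjusted p = 0.091 by edgeR with Benjamini-Hochberg adjustment, not past the threshold). Neat1, a nuclear long noncoding RNA, ran from 784 to 1234 CPM (median 933) at 29 °C and from 1262 to 2116 CPM (median 1795) at 5 °C in KO-labelled mice and from 479 to 1016 CPM (median 607) at 29 °C and from 2265 to 5405 CPM (median 3589) at 5 °C in WT-labelled mice, a difference of -1.61. In 78 of the 150, the gene was lower after cold in KO-labelled mice and higher in WT-labelled ones. The share of all counts in TEC genes fell from between 0.297% and 0.329% to between 0.196% and 0.250% in KO-labelled mice, and was 0.209% to 0.299% and 0.256% to 0.291% in WT-labelled mice at 29 °C and 5 °C.

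**Figure D5:**
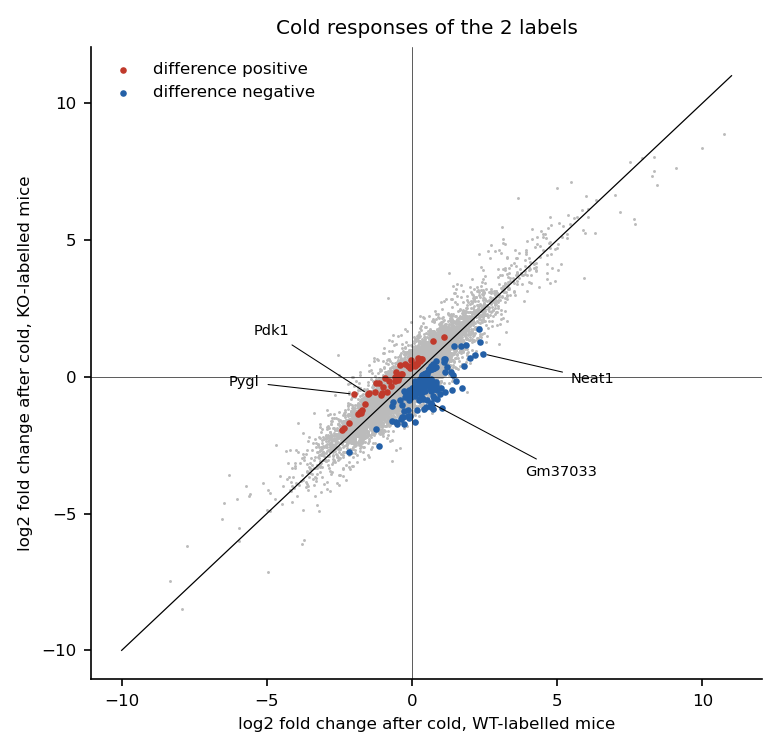
Log2 fold change after cold in KO-labelled mice (7 against 7) and in WT-labelled mice (5 against 7) for the 17286 genes tested, with the diagonal of equal response. The 200 genes whose responses differed at FDR below 0.05 are coloured, 50 above the diagonal and 150 below it.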

How the data were processed

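RNA of brown adipose tissue from 26 mice was sequenced by the authors as ribosomal RNA-depleted, stranded total RNA (single-end, 100 bases). Per the study's methods, the authors aligned reads with STAR 2.5.2b to mm10 and counted them per GENCODE M13 gene with featureCounts 1.5.2, and the deposited table holds these raw counts of 50686 genes. The strand setting of the counting is not given in the sources used here. Groups came from the sample labels, and each sample is named there as a separate mouse.

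The 17286 genes kept by filterByExpr were scaled by TMM and fitted in edgeR 4.0.16 (R 4.3.3) with glmQLFit over all 4 groups, as in the study's design. Contrasts were tested with glmQLFTest, with glmTreat against a 1.5-fold change, and for the difference between the cold responses of the labels, each with Benjamini-Hochberg adjustment and a threshold of 0.05. DESeq2 1.42.0, other scalings and filters, and fits without each mouse were alternatives. Principal components were taken from log2 CPM with a prior count of 2. Shares of counts were compared by exact permutation. Gene positions and classes came from GENCODE M21 (GRCm38), promoters from RefSeq (GRCm38.p6). The fit was tested on simulated data in which few genes changed, equally in both directions. Those data do not test the scaling where most genes change, as they do here.

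The members, gene lists and promoters were chosen with earlier results of these data known. The rule for named genes took Afdn, Kng1 and the genes the study's text names, the 10 largest changes in each direction whose 7 and 7 mice lay apart and whose mean reached 1 CPM, up to 3 members of each list in each direction with the most abundant member, the 5 most abundant genes, and the 5 largest differences between labels in each direction. Genes named outside this rule were chosen with their values in view. Some listed genes are counted but not reported by name here.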

Additional observations from a re-analysis of the deposited data

Results flagged for a closer look

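Of 400 groups of 7 mice checked with Dixon's test, over the genes named above, 25 (6.25%) had 1 mouse far from the other 6, where chance gives about 5%. They gathered in a few mice.

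KO30 mouse 13 was the highest at 29 °C for genes that cold raised most. It had 0.5682 CPM of Slco1a1 (others 0 to 0.116), 10.3 CPM of Dhrs9 (others 1.46 to 2.85), 1.91 CPM of Sgk2 (others 0.0533 to 0.354), 0.465 CPM of Serpina3m (others 0 to 0.0507), 130.3 CPM of Slc27a2 (others 87.2 to 103) and 0.155 CPM of Acot5, which had no count in the others. KO5 mouse 27 was highest at 5 °C for Crem (44.3 CPM, others 35.7 to 38.8), the phosphatase Dusp5 (15.2 CPM, others 3.35 to 6.29), Nfil3 (110.8 CPM, others 33.6 to 56.2) and Fabp4 (9795 CPM, others 7047 to 7729), and lowest for Lpl (4688 CPM, others 7319 to 8051) and Pdp2 (179 CPM, others 267 to 329). It also held the only count of Gm39038 at 5 °C (0.0562 CPM). KO5 mouse 22 was lowest for the fatty acid synthesis genes Fasn (745 CPM, others 1803 to 2664) and Acly (156 CPM, others 327 to 547).

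KO30 mouse 10 was highest for Hsp90aa1 (145 CPM, others 54.7 to 76.7) and lowest for Lhx8 (1.80 CPM, others 3.04 to 3.85). KO5 mouse 24 was lowest for Hspb8 (82.2 CPM, others 128 to 162), Cry1 (24.4 CPM, others 35.4 to 46.3) and Gm37390 (0.674 CPM, others 1.46 to 1.85). KO5 mouse 28 was highest for Cycs (432 CPM, others 348 to 380) and Gm36933 (6.57 CPM, others 3.49 to 4.41). KO30 mouse 14 was highest for Ebf2 (102 CPM, others 70.6 to 81.0), KO5 mouse 23 for Mcm2 (3.39 CPM, others 1.96 to 2.40), and KO30 mouse 12 was lowest for G0s2 (157 CPM, others 290.4 to 459).

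Among the genes named above, 15 had cold responses that differed between the labels in the quasi-likelihood test of edgeR (Benjamini-Hochberg adjusted). The log2 differences, KO-labelled minus WT-labelled, were positive for Pygl (1.36), Ufsp1 (1.02), Hist1h3f (0.91), Pdk1 (0.90), Thnsl2 (0.89), Ugp2 (0.70), Rps15a (0.60) and Cebpa (0.47). They were negative for Gm20682 (-1.84), Gm37390 (-1.76), Gm36933 (-1.73), Gm43984 (-1.65), Gm37033 (-1.63), Neat1 (-1.61) and Pde3a (-0.54). The cause was not tested.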

How the results depend on the processing

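No paired analysis was possible because the groups share no replicate number. The count of genes whose cold responses differed was the least stable value. Against 50 positive and 150 negative it was 242 and 246 with DESeq2, and 0 and 278 with library size alone. It was 17 and 437 with library size without mitochondrial genes, 0 and 27 without a filter, and 27 and 246 with upper-quartile factors. Without the 9 KO-labelled mice high in muscle markers it was 5 and 28. That fit kept every WT-labelled mouse, since muscle markers were summed in KO-labelled mice only. It therefore does not compare the labels free of muscle RNA. The cause of these shifts in the count was not tested. The cold response of KO-labelled mice gave 3223 higher genes with library size alone, and 3389 higher and 9129 lower without mitochondrial genes. Beyond 1.5-fold these were 1372 and 4556, and 1402 and 5014. The scaling without mitochondrial genes and the fit without muscle-high mice were chosen after seeing the data. Leaving out each mouse gave 5468 to 5820 higher and 5903 to 6173 lower genes, 2278 to 2485 and 2835 to 3049 beyond 1.5-fold, and 2 to 126 positive and 47 to 258 negative differences. The share of counts in mitochondrially encoded proteins kept its sign (-1.30 to -0.95 percentage points). The difference in the share of the 10 most abundant genes (-0.55 points, exact permutation p = 0.867) was -2.04 to 0.856 with each mouse left out (positive, at 0.0611, 0.478, 0.716 and 0.856, without KO5 mouse 23, KO30 mouse 11, KO30 mouse 10 or KO5 mouse 28). It was 1.37 points (exact permutation p = 0.00291) with mitochondrial genes left out of both the choice of the 10 and the total.

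Of 184 named genes past the threshold, 17 lost it without the muscle-high mice: Agt, Apold1, Ddit3, Dusp1 (0.31), Dusp5, Fasn, Fosb, Gm20682, Hk2, Hspb7, Hsph1, Irf4, Kng1, Neat1, Pdk1, Psph and Pygl. Values that changed sign were all of genes not past the threshold. Cidea was at -0.026 with 10 counts in every mouse, -0.28 with library size alone, -0.31 without mitochondrial genes (both past the threshold), -0.0031 in the KO groups alone, -0.12 with upper-quartile factors, -0.061 without muscle-high mice and -0.037 to 0.088 without each mouse. With library size alone, without mitochondrial genes and without each mouse, Fos was at -0.14, -0.15 and -0.13 to 0.65. Hspa1a was at -0.071 without mitochondrial genes and -0.032 to 1.78 without each mouse. Without muscle-high mice Fos was at -0.76, Hspa1a at -0.77, Hspa1b at -0.50, Zic1 at 0.19 and Lhx8 at 0.079. Gm20682 and Itpkb also lost their calls in leave-one-out fits.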

Other observations

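Other cell types of the tissue showed smaller shifts in KO-labelled mice. Of 10 macrophage markers, 6 rose and 2 fell, with the scavenger receptors Cd163 (1.29) and Mrc1 (1.27) up and Csf1r, the receptor of the survival factor CSF1, down by 0.76, and their summed level was 240.7 to 297 CPM at 29 °C and 294 to 433 CPM at 5 °C. Of 9 T cell and 7 B cell markers tested, 1 of each fell and none rose, which rested on 1 mouse. KO5 mouse 23 had summed levels of 27.3 CPM (T cell) and 35.8 CPM (B cell), and the other 6 cold mice 2.68 to 6.15 CPM and 2.77 to 9.09 CPM, against 5.34 to 16.6 CPM and 10.9 to 17.9 CPM at 29 °C. Without that mouse, 5 of 9 T cell and 6 of 6 B cell markers fell, and the B cell sums did not overlap. Contractile smooth muscle genes were divided, with Cnn1 (1.20) and Tagln (0.82) higher and Myh11 (-0.63) and the pericyte marker Cspg4 (-1.67) lower among 8, of which 3 rose and 4 fell. Their summed level was 625 to 769.9 CPM at 29 °C and 499.8 to 608 CPM at 5 °C, without overlap. Of 5 Schwann cell and neuron markers tested, 3 fell, with Sox10 at -1.14, and their sum, 77.1 to 94.3 CPM at 29 °C and 50.9 to 69.6 CPM at 5 °C, did not overlap. Of 10 fibroblast and preadipocyte markers, 2 rose and 3 fell, with a median of 0.15 that was -0.18 with library size alone.

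Among smaller groups, the RNA-binding proteins known for their response to cooling of the body went opposite ways, Rbm3 at 0.72 and Cirbp at -0.83. Their list of 13, with splicing factors, had 6 higher and 1 lower with a median of 0.19, 2 higher and 4 lower with a median of -0.11 with library size alone, and 3 higher without KO30 mouse 9 or 13. Creatine genes had 2 higher (Ckb 0.47 and Alpl 0.71) and 3 lower of 7, among them the synthesis enzymes Gatm (-0.70) and Gamt (-0.83). Without the mice high in muscle markers 0 rose and 3 fell (median 0.47 before, -0.03 after), and with at least 10 counts in every mouse the median of the 5 genes left was -0.67. The summed level of the list ran from 106 to 284 CPM at 29 °C and from 85.9 to 931 CPM at 5 °C. Of 21 genes of branched-chain amino acid breakdown, 4 rose and 6 fell, with the cytosolic transaminase Bcat1 (2.16) and the mitochondrial carrier Slc25a44 (0.52) higher and the mitochondrial transaminase Bcat2 (-0.34) lower. Among 9 nuclear-retained long noncoding RNAs, 3 rose and 4 fell, Gas5 by 1.23 upward and Snhg11 at -1.63. Of 8 mitochondrially encoded proteins tested, 3 rose and none fell (median 0.02, and -0.33 with library size alone).

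The most abundant genes over the 14 KO-labelled mice were the mitochondrial ribosomal RNAs mt-Rnr2 (20.4% of counts) and mt-Rnr1 (2.41%), mt-Co1 (4.93%), a subunit of cytochrome c oxidase, the desaturase gene Scd1 (1.83%) and the nuclear RNA Malat1 (1.01%). The 10 most abundant genes together held 34.4% ± 4.86 (SD, n = 7) of counts at 29 °C and 33.8% ± 6.25 (SD, n = 7) at 5 °C, a difference smaller than the spread between mice (exact two-sided permutation test, p = 0.867).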
